A study of Homo sapiens with 6 samples.

Results

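Cyclic nucleotide signalling was followed through 50 genes of JHH-4, an established line of human hepatocellular carcinoma cells. They are the rows of the count table whose symbol begins as a phosphodiesterase (PDE with a number and the letter A to D), an adenylyl cyclase (ADCY), a subunit of protein kinase A (PRKAR or PRKAC), an A-kinase anchoring protein (AKAP), a soluble guanylyl cyclase (GUCY1), or is PKIA, PKIB, PKIG, CREB1, CREB3, CREB5 or RAPGEF1 to RAPGEF6. The rule uses names alone, found 50 of 12396 genes with an Ensembl ID, and takes in 2 genes, PDE4DIP and PDE6D, that share the prefix without being phosphodiesterases. Both groups were JHH-4 cells grown in the same serum-containing medium and labelled epithelial-like: the control group is labelled WT, and the overexpression group carried a plasmid that encodes the pri-miRNA of hsa-miR-372-3p. The labels do not say whether the control cells carried an empty plasmid. Each group had 3 RNA-seq libraries, described by the series as technical replicates of 1 line, so every p-value here measures the spread between these libraries and not between cultures. The comparison asks which of these genes differed in level once the microRNA was overexpressed.

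Cyclic AMP is made from ATP by adenylyl cyclases, which sit in the plasma membrane and answer to G protein-coupled receptors, and it is removed by phosphodiesterases. It acts mainly by releasing the catalytic subunits of protein kinase A from the regulatory subunits, and also through EPAC exchange factors. Anchoring proteins hold the kinase at chosen places, PKI peptides block its catalytic subunit, and the transcription factor CREB1 is among its nuclear substrates. In hepatocytes this is the pathway by which glucagon turns on glucose production. Cyclic GMP is the parallel messenger made by nitric oxide-sensitive guanylyl cyclase.

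The mature sequence of hsa-miR-372-3p, from RefSeq (GRCh38.p14, chromosome 19, 53787931 to 53787953), is shown with its seed, bases 2 to 8, in capitals, because the seed defines the matches sought in the members' messenger RNAs.
hsa-miR-372-3p: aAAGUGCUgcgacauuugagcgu
The reverse complement of the seed is AGCACTT, and AGCACTTA, the same letters followed by A, is the 8-base match. The longest annotated 3′ UTR (GENCODE 29, GRCh38) held AGCACTTA in 8 members. Their matches are shown, on the strand of the transcript and with the 8 bases in capitals, since these 8 genes went in different directions (their values follow by role).
GUCY1A1, chr4:155730463-155730488, plus strand: tctattatataaccAGCACTTActac
PDE7B, chr6:136193683-136193708, plus strand: atagaatgacagctAGCACTTAtttc
PDE4D, chr5:58969163-58969188, minus strand: accaatatatcactAGCACTTAaaac
CREB5, chr7:28821859-28821884, plus strand: tttactgcatgcatAGCACTTAataa
AKAP5, chr14:64469968-64469993, plus strand: aggtgtatttattgAGCACTTAtggt
AKAP2, chr9:110171241-110171266, plus strand: gttgattgaaccagAGCACTTAttgc
PDE8A, chr15:85138256-85138281, plus strand: tctcagttacgttcAGCACTTAagaa
RAPGEF5, chr7:22121391-22121416, minus strand: catttaatgagtgaAGCACTTAgcac
Of these, GUCY1A1 and PDE7B fell, PDE4D, CREB5, AKAP5 and AKAP2 rose, and PDE8A and RAPGEF5 did not pass the test. A match is a run of letters and not a site shown to be used.

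Counts assigned to genes totalled 46851245 to 47890069 per control library and 51072581 to 60070397 per overexpression library, so the overexpression libraries were deeper. Levels are given as CPM, counts per 1000000 of the scaled library, for comparing 1 gene between libraries, and as the authors' FPKM, which also divides by length, for comparing genes. Among hepatocyte markers, the fibrinogen genes FGA, FGB and FGG rose and FOXA2 and SERPINA1 fell, while albumin was not analysed here; no sum over that list is given. Of 15 markers of blood, endothelial and stromal cells 4 were in the table: COL1A1 rose from 4.84 ± 1.97 to 64.0 ± 3.63 CPM (SD, n = 3; 13.2-fold), PDGFRB rose 2.23-fold, RGS5 fell 1.89-fold and CD68 did not pass (log2 fold change −0.01). The summed level of these 4, most of it CD68 and RGS5, was 341 to 386 CPM in control and 327 to 331 in overexpression libraries. The part of such markers in the results was not tested. The other 11, among them PTPRC, PECAM1 and ACTA2, were not analysed here.

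Of the 50 members, 14 rose, 19 fell and 17 did not pass the test at an adjusted p of 0.05 (edgeR quasi-likelihood test, Benjamini-Hochberg over all genes). That is 66% of the members, beside a background of 54.5% of all 12396 genes, with 26.8% of all genes higher and 27.7% lower. At least 1.5-fold changes were seen in 13 members (26%; 6 higher and 7 lower), beside 15.6% of all genes (7.11% higher and 8.46% lower). The median log2 fold change was −0.01 over the members and 0.00 over all genes, while the median absolute change was 0.35 over the members and 0.22 over all genes. The 2 groups of libraries did not overlap in 35 members (70%), of which 17 were higher and 18 lower, beside 62.2% of all genes (30.7% higher and 31.4% lower). These shares describe the list and are not a test of it. By role, adenylyl cyclases (2 rose, 3 fell), catalytic phosphodiesterases (3 and 3), anchoring proteins (6 and 2) and CREB genes (1 and 1) held calls in both directions. All 3 PKI genes and 4 of 5 kinase subunits fell, and 2 of 5 RAPGEF genes rose, with none in the other direction. In RNA from whole cultures, less RNA per cell cannot be told apart from fewer cells that make it.

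**Figure D1:**
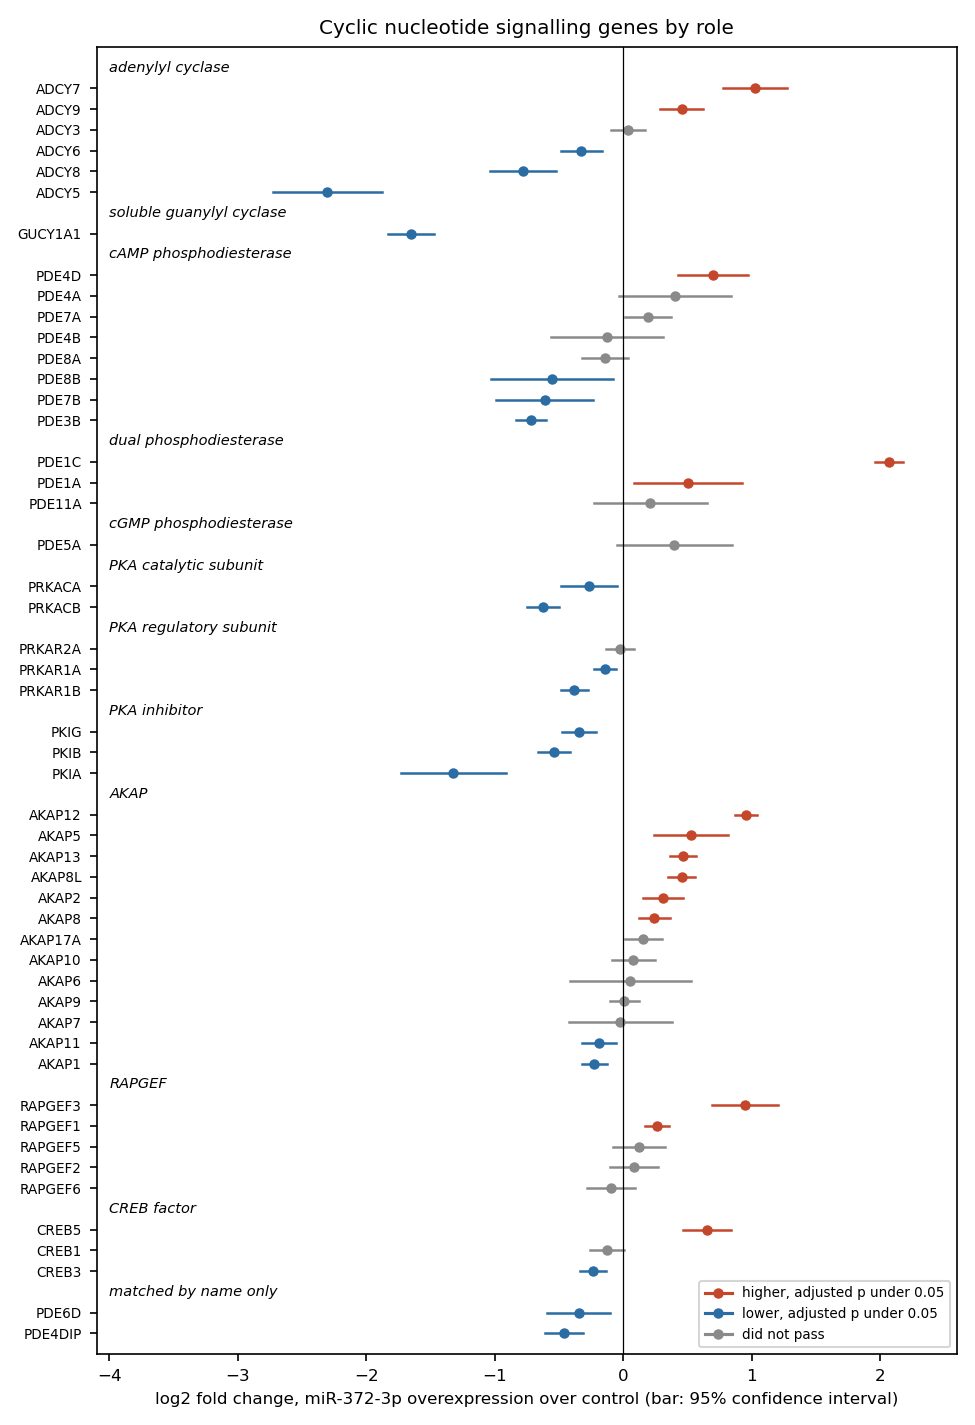
Log2 fold change of each of the 50 members (x axis, overexpression over control, from 3 libraries a group), grouped by role; points are estimates and bars 95% confidence intervals, red for higher, blue for lower and grey for genes that did not pass at an adjusted p of 0.05. PDE1C at 2.07 and ADCY5 at −2.30 lie at the ends, and the 3 PKA inhibitors all lie below 0.

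Adenylyl cyclases changed in opposite directions. ADCY5 and ADCY8 fell most, ADCY6 fell slightly, ADCY7 and ADCY9 rose, and ADCY3 did not pass, so 3 of 6 fell and 2 rose. The share called was 83.3%, beside 54.5% of all genes. ADCY5 (ENSG00000173175, chromosome 3, 123282296 to 123449758, minus strand, GRCh38), an isoform inhibited by calcium and by Gi proteins, had 4.00, 4.01 and 4.18 CPM in control replicates 1, 2 and 3, and 0.734, 0.752 and 0.981 CPM in overexpression replicates 1, 2 and 3. The highest overexpression library was far below the lowest control, and the drop was 4.93-fold (log2 fold change −2.30 ± 0.189, standard error, adjusted p = 6.56e-06). On the log2(FPKM + 0.1) scale, which understates changes of low genes, the change was −1.60 (limma adjusted p = 0.000118). ADCY8, which calcium and calmodulin activate, went from 6.82, 7.06 and 7.04 CPM in the controls to 3.89, 4.29 and 4.02 CPM under overexpression. Its groups did not overlap, with a 1.72-fold drop (−0.78 ± 0.116, adjusted p = 0.000328). ADCY6, the near relative of ADCY5 and also inhibited by calcium, had 54.6, 51.2 and 62.9 CPM in control and 46.2, 44.7 and 43.7 CPM in overexpression libraries. All its overexpression libraries were below all controls, by a small amount (−0.33 ± 0.072, adjusted p = 0.00355). ADCY7, a calcium-insensitive isoform raised by G protein beta-gamma subunits, had 5.60, 4.83 and 5.60 CPM in control and 9.92, 11.7 and 11.1 CPM in overexpression libraries. Its groups were far apart and it rose 2.04-fold (1.03 ± 0.111, adjusted p = 4.15e-05). ADCY7 shares 41.6% of its annotated exon bases with BRD7 on the other strand, and the library kit does not mark strand; BRD7 itself had a log2 fold change of −0.12 and did not pass. ADCY9 rose 1.37-fold (0.46 ± 0.075), while ADCY3 had 0.04 ± 0.059 (95% confidence interval −0.10 to 0.17). ADCY3 shares 24.6% of its exon bases with CENPO on the other strand.

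On the FPKM scale, where genes can be ranked, ADCY6 and ADCY3 held most of the cyclase transcripts in both groups. The 6 genes summed to 17.9, 17.8 and 19.3 FPKM in control replicates 1, 2 and 3, against 18.5, 17.6 and 17.1 FPKM in overexpression replicates 1, 2 and 3, and these ranges overlapped (18.3 ± 0.818 against 17.7 ± 0.733, SD, n = 3). The mix inside that sum differed. ADCY6 went from 43.7 ± 3.15% of it to 36.0 ± 0.512%, level with ADCY3 (33.4 ± 2.37% and 36.1 ± 2.01%). ADCY7 went from 4.27 ± 0.498% to 9.32 ± 1.18% and ADCY9 from 10.2 ± 0.914% to 14.6 ± 0.623%, whereas ADCY5 went from 2.75 ± 0.0812% to 0.562 ± 0.111%. ADCY5 and ADCY8, which changed most among the cyclases that fell, were therefore minor contributors in the controls.

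GUCY1A1 (ENSG00000164116, chromosome 4, 155666711 to 155732349, plus strand), the alpha-1 subunit of nitric oxide-sensitive guanylyl cyclase, was the only gene of that enzyme in the table; its partner GUCY1B1 was not analysed here. It had 19.7, 19.1 and 18.3 CPM in the controls and 5.84, 6.39 and 5.94 CPM in the overexpression libraries. Every overexpression library lay at about the same low level, and the gene fell 3.14-fold (−1.65 ± 0.081, adjusted p = 2.39e-07), the second largest drop among the members after ADCY5. Its 3′ UTR of 2118 nt held the 8-base match printed above and a second copy of AGCACTT nearer the stop codon, shown here with the 7 bases in capitals.
GUCY1A1, chr4:155730283-155730307, plus strand: gtagagcctctgaaAGCACTTtagg

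Among the phosphodiesterases, PDE1C rose and PDE3B fell, and the gene with the highest FPKM was PDE8A in control and PDE1C in overexpression libraries. Of 12 catalytic members, 3 rose (PDE1C, PDE1A and PDE4D), 3 fell (PDE3B, PDE7B and PDE8B) and 6 did not pass. That is 6 of 12 called, a slightly smaller share than the 54.5% of all genes. PDE1C (ENSG00000154678, chromosome 7, 31751179 to 32299329, minus strand) codes for a calcium- and calmodulin-activated enzyme that splits both cAMP and cGMP. It had 14.1, 14.0 and 13.8 CPM in control replicates 1, 2 and 3, and 60.2, 58.5 and 57.1 CPM in overexpression replicates 1, 2 and 3. The libraries of each group were close together and the groups far apart, for a 4.20-fold rise (2.07 ± 0.048, adjusted p = 2.93e-09), the largest among the 50 members. No 6-base match to the seed lay in its 3′ UTR. PDE3B, the cGMP-inhibited enzyme through which insulin lowers cAMP in liver and fat, had 42.9, 42.7 and 41.0 CPM in control and 26.8, 24.6 and 25.5 CPM in overexpression libraries. It was lower in all 3 overexpression libraries and fell 1.64-fold (−0.72 ± 0.052, adjusted p = 2.80e-06).

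The cAMP-specific PDE4 genes were expressed at low levels and did not move as a family. PDE4D, a long gene of chromosome 5 with many promoters, had 5.60, 7.68 and 6.53 CPM in control and 10.7, 11.2 and 10.3 CPM in overexpression libraries. The groups did not overlap, although the controls spread widely, and it rose 1.62-fold (0.70 ± 0.122, adjusted p = 0.000910); the 8-base match printed above starts at base 5490 of its 3′ UTR of 5626 nt. PDE4A had 0.40 ± 0.195 and PDE4B −0.13 ± 0.195, and neither passed (adjusted p = 0.107 and 0.602). PDE7B, another cAMP-specific enzyme, had 3.88, 3.63 and 3.19 CPM in control and 2.52, 2.47 and 2.02 CPM in overexpression libraries. Its highest overexpression library was below the lowest control, and it fell 1.53-fold (−0.61 ± 0.169, adjusted p = 0.0119), while its relative PDE7A had 0.19 ± 0.079 and did not pass (adjusted p = 0.0621). PDE8A, a cAMP enzyme of high affinity, had 31.9, 34.1 and 27.3 CPM in control and 29.0, 27.1 and 28.4 CPM in overexpression libraries. Control replicate 3 lay below the other controls and inside the range of the overexpression libraries, and the gene did not pass (−0.14 ± 0.079, adjusted p = 0.162), but passed once that library was left out (log2 fold change −0.23, adjusted p = 0.00944). PDE8B, at 1.39 ± 0.0766 CPM in control and 0.945 ± 0.148 in overexpression libraries (SD, n = 3), fell with an adjusted p of 0.0488, which 9 of 14 alternatives took past 0.05, among them the replicate block (0.0768), DESeq2 (0.105) and the fits without control replicate 1 (0.117), 2 (0.0916) or 3 (0.0730) or overexpression replicate 1 (0.147) or 2 (0.116). Its count is uncertain too, since 41.6% of its exon bases belong also to AC022414.1 on the same strand.

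PDE1A passed narrowly, and PDE5A and PDE11A did not pass. PDE1A, the relative of PDE1C, went from 2.70 ± 0.357 to 3.83 ± 0.722 CPM (SD, n = 3; 0.50 ± 0.187, adjusted p = 0.0432). Its call was lost without control replicate 1 (adjusted p = 0.121), control replicate 2 (0.0989), overexpression replicate 1 (0.0900) or overexpression replicate 3 (0.166), and with library totals alone (0.0508). PDE5A, which is specific for cGMP and the target of sildenafil, had 2.90, 3.28 and 3.73 CPM in control and 4.19, 3.36 and 5.51 CPM in overexpression libraries. Overexpression replicate 2 lay within the control range, and the gene did not pass (0.40 ± 0.200, adjusted p = 0.117), except without that library (adjusted p = 0.0438); on the FPKM scale the log2 fold change was 0.08. PDE11A had 0.21 ± 0.197 (95% confidence interval −0.23 to 0.65, adjusted p = 0.388). Of its exon bases 26.4% belong also to another annotated gene of that name on the same strand.

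**Figure D2:**
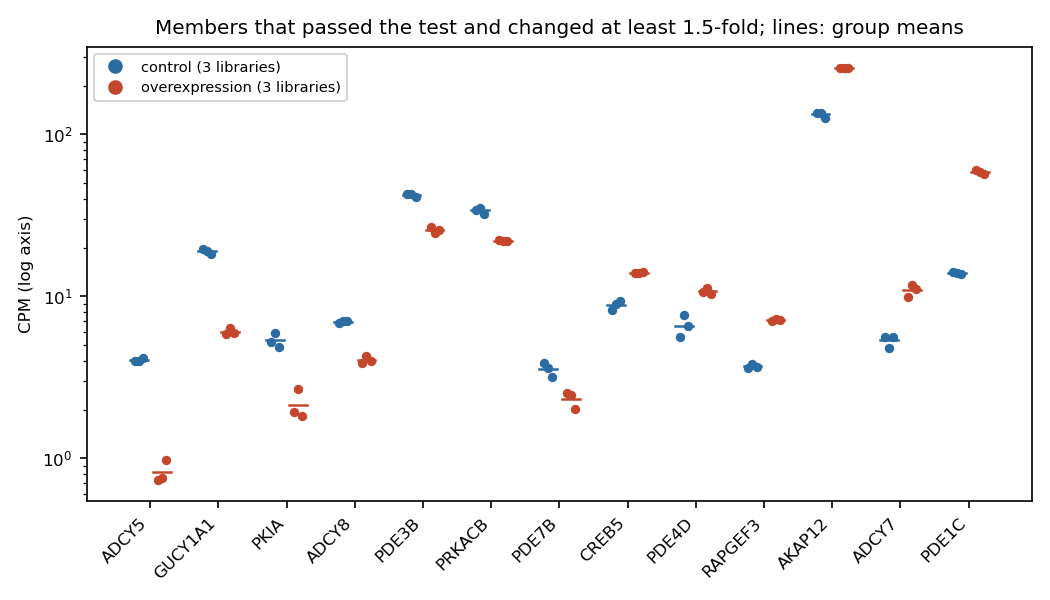
Level in CPM (y axis, log scale) of the 13 members that passed the test and changed at least 1.5-fold, ordered by log2 fold change; each point is 1 library, blue for control and red for overexpression, and lines are means of 3 libraries. In all 13 the 2 groups are apart, with PDE1C and ADCY5 the furthest.

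Per length, the order of the phosphodiesterases differed between the groups. In control libraries PDE8A (7.44 ± 0.841 FPKM, SD, n = 3) and PDE3B (6.16 ± 0.101) led, followed by PDE7A (3.74 ± 0.342) and PDE1C (1.93 ± 0.0934). In overexpression libraries PDE1C (8.73 ± 0.433) stood first, ahead of PDE8A (6.43 ± 0.292), while PDE7A (4.21 ± 0.104) and PDE3B (3.76 ± 0.208) had levels closer to each other. The 12 genes summed to 23.9, 23.2 and 22.8 FPKM in the controls and 29.3, 27.5 and 28.5 FPKM in the overexpression libraries, without overlap (23.3 ± 0.560 against 28.4 ± 0.894). PDE1C made up 8.29 ± 0.436% of the sum in control and 30.7 ± 1.05% in overexpression libraries, and PDE3B 26.4 ± 0.221% and 13.2 ± 0.320%. These are transcript levels and not enzyme activities.

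**Figure D3:**
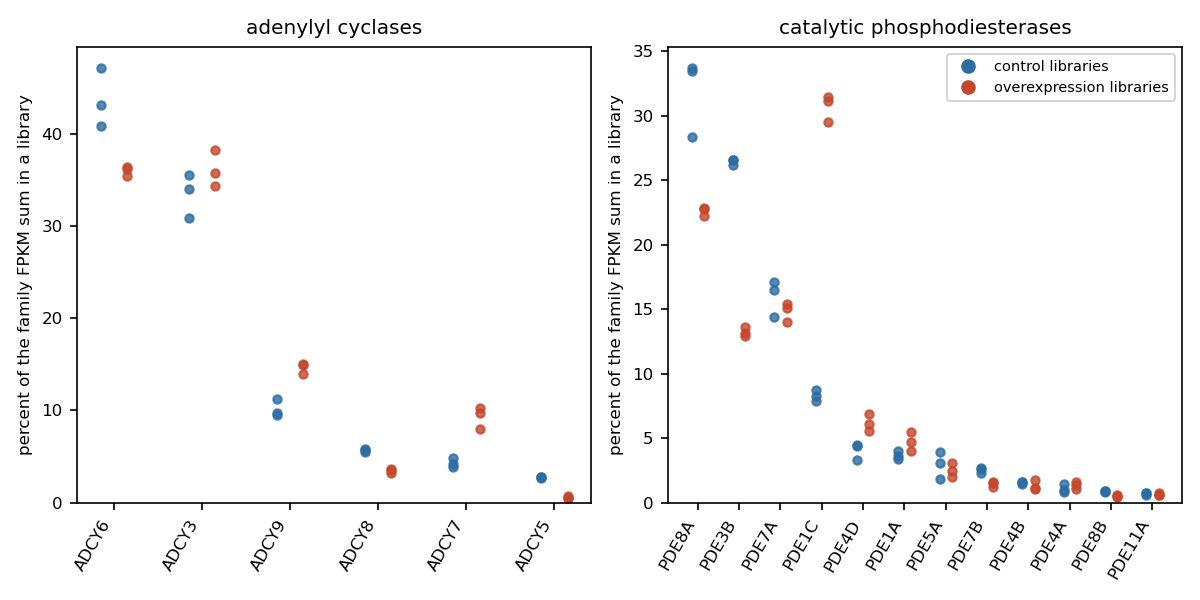
Share of each gene in its family's FPKM sum (y axis, percent), for 6 adenylyl cyclases and 12 catalytic phosphodiesterases; each point is 1 library, blue for the 3 control and red for the 3 overexpression libraries. PDE1C moves from 8.29% to 30.7% of the phosphodiesterase sum (means), and ADCY6 and ADCY3 lie together at the top under overexpression.

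Most subunits of protein kinase A and all 3 of its peptide inhibitors fell, by 1.5-fold or more in PRKACB and PKIA and by less in the others that passed. Of the 5 kinase subunits 4 fell, none rose, and PRKAR2A did not pass (−0.02 ± 0.049, 95% confidence interval −0.13 to 0.08). That is 4 of 5 called, a larger share than the 54.5% of all genes. PRKACB (ENSG00000142875, chromosome 1, 84078062 to 84238498, plus strand), the beta catalytic subunit, had 34.3, 35.3 and 32.5 CPM in control and 22.4, 22.0 and 21.9 CPM in overexpression libraries. The overexpression libraries were nearly identical and all below the controls, a 1.54-fold drop (−0.62 ± 0.055, adjusted p = 1.11e-05). Its 3′ UTR held AGCACTT once, at 84236703 to 84236709, shown with those 7 bases in capitals.
PRKACB, chr1:84236689-84236713, plus strand: aggtggaaatttcaAGCACTTttgc
PRKACA, the alpha catalytic subunit, had 56.3, 57.4 and 44.8 CPM in control and 39.5, 47.9 and 44.5 CPM in overexpression libraries. Control replicate 3 lay below overexpression replicate 2, so the groups overlapped. The gene passed narrowly (−0.27 ± 0.098, adjusted p = 0.0430), and the call was lost without control replicate 1 (adjusted p = 0.142) or 2 (0.127) or overexpression replicate 1 (0.162) or 3 (0.0931), and on the FPKM scale (0.0754). PRKAR1A, the main type I regulatory subunit, had 259, 252 and 262 CPM in control and 233, 227 and 241 CPM in overexpression libraries. It had the highest mean CPM of the 50 members, and all its overexpression libraries lay a little below all controls (−0.14 ± 0.037, adjusted p = 0.00970; on the FPKM scale it did not pass, with a limma adjusted p of 0.0700). PRKAR1B had 64.7, 67.7 and 67.3 CPM in control and 51.8, 52.2 and 49.6 CPM in overexpression libraries. Its groups did not overlap and it fell 1.30-fold (−0.38 ± 0.045, adjusted p = 8.16e-05).

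PKI peptides bind the free catalytic subunit and carry it out of the nucleus, and all 3 of their genes fell. PKIB, the most abundant per length, had 97.0, 89.3 and 101 CPM in control and 66.3, 63.6 and 68.6 CPM in overexpression libraries. The groups were clearly apart, and the drop was 1.45-fold (−0.53 ± 0.056, adjusted p = 3.30e-05). PKIA had 5.26, 5.97 and 4.88 CPM in control and 1.93, 2.67 and 1.84 CPM in overexpression libraries. It fell 2.50-fold from a low level (−1.32 ± 0.183, adjusted p = 0.000205), with overexpression replicate 2 the highest of its group. PKIG fell 1.27-fold (−0.35 ± 0.059, adjusted p = 0.000763).

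Summed over genes, kinase and inhibitor transcripts were lower under overexpression in all 3 families. The 3 regulatory subunits summed to 95.1 ± 2.44 FPKM in control and 84.2 ± 1.40 in overexpression libraries (SD, n = 3), the 2 catalytic subunits to 24.4 ± 2.35 and 19.3 ± 1.02, and the 3 PKI genes to 85.9 ± 3.70 and 61.5 ± 1.81. The ratio of regulatory to catalytic FPKM was 3.65, 3.62 and 4.51 in control replicates 1, 2 and 3, against 4.62, 4.09 and 4.40 in overexpression replicates 1, 2 and 3. Control replicate 3 lay among the overexpression libraries, so this ratio was not separated between the groups. The ratio of PKI to catalytic FPKM was 3.34, 3.18 and 4.13 in control and 3.46, 2.94 and 3.19 in overexpression libraries, which overlapped too. PRKAR1A held 61.9 ± 1.36% of the regulatory sum in control and 64.0 ± 1.55% in overexpression libraries.

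**Figure D4:**
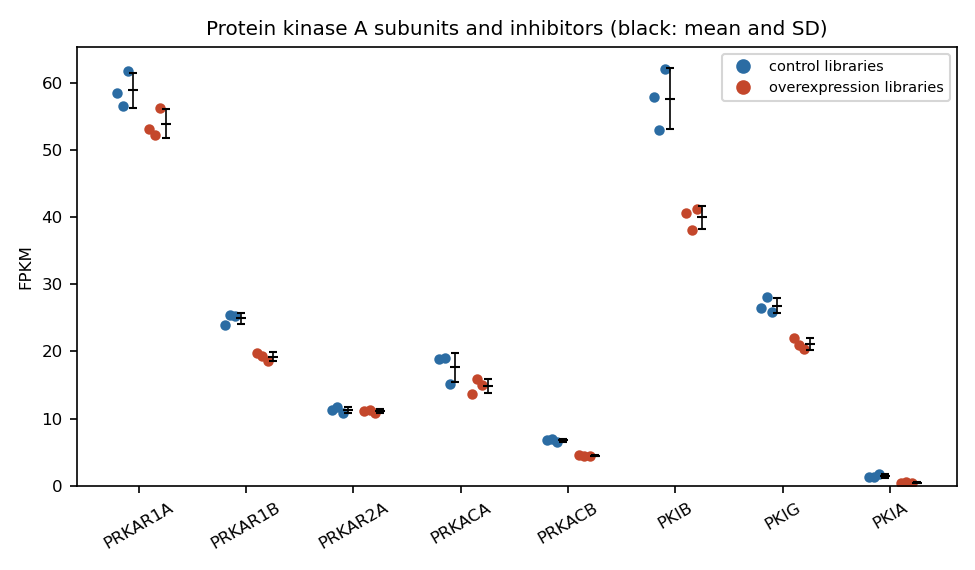
FPKM (y axis) of the 3 regulatory and 2 catalytic subunits of protein kinase A and the 3 PKI inhibitors; each point is 1 library, blue for control and red for overexpression, with mean and SD of 3 libraries in black. In PKIB, PKIG, PKIA, PRKAR1A, PRKAR1B and PRKACB the groups do not overlap; in PRKACA and PRKAR2A they do.

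Anchoring proteins, which tether protein kinase A to membranes, centrosomes, mitochondria or the nucleus, went mostly up where they changed. Of 13 genes 6 rose, 2 fell and 5 did not pass. That is 61.5% called, beside 54.5% of all genes, and 7.69% at 1.5-fold or more, beside 15.6%. AKAP12 (ENSG00000131016, chromosome 6, 151239999 to 151358557, plus strand), also called gravin, a scaffold at the plasma membrane that joins the kinase to beta-adrenergic receptors, had 136, 136 and 127 CPM in control and 258, 258 and 256 CPM in overexpression libraries. The overexpression libraries were close to one another and lay far above the controls, a 1.94-fold rise (0.95 ± 0.038, adjusted p = 6.95e-08). On the FPKM scale it was the first of the 13 under overexpression (34.2 ± 0.282), ahead of AKAP8L (29.5 ± 0.710), whereas in control AKAP1 led (23.6 ± 0.306) and AKAP12 had 17.4 ± 0.527 (SD, n = 3).

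The other anchoring proteins changed less than 1.5-fold. AKAP5 (AKAP79), a partner of calcineurin at the membrane, rose 1.44-fold (0.53 ± 0.128, adjusted p = 0.00603) with an 8-base match in its 3′ UTR. AKAP13, an anchoring protein that is also an exchange factor for RhoA, rose in counts (0.46 ± 0.045, adjusted p = 2.03e-05). On the FPKM scale AKAP13 went from 4.53 ± 0.951 to 5.29 ± 0.621, with overlapping libraries, and did not pass (limma adjusted p = 0.264), so its call rests on the counts. The nuclear pair AKAP8L (0.46 ± 0.047) and AKAP8 (0.24 ± 0.053) rose as well. AKAP8L shares 22.4% of its exon bases with AC006128.1 on the other strand, which the library kit does not tell apart. AKAP2 (0.31 ± 0.071) rose, but 85.8% of its exon bases belong also to the read-through gene PALM2-AKAP2 on the same strand, so its count is uncertain. AKAP1, which anchors the kinase to the outer mitochondrial membrane, fell (−0.22 ± 0.043, adjusted p = 0.00156). AKAP11 fell as well (−0.19 ± 0.059, adjusted p = 0.0224), a call lost without control replicate 1 (adjusted p = 0.0652), overexpression replicate 2 (0.0774) or overexpression replicate 3 (0.0642), and on the FPKM scale (0.120). AKAP6, AKAP7, AKAP9, AKAP10 and AKAP17A did not pass, with log2 fold changes from −0.02 to 0.16; AKAP17A passed without overexpression replicate 3 (adjusted p = 0.0459) and with the replicate block (0.0474).

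Exchange factors of the RAPGEF family turn on the small G proteins RAP1 and RAP2. Among the 5 measured, RAPGEF3 (EPAC1) is opened directly by cAMP, and RAPGEF4 was not analysed here. RAPGEF3 (ENSG00000079337, chromosome 12, 47734367 to 47771040, minus strand) had 3.60, 3.82 and 3.67 CPM in control and 7.05, 7.20 and 7.16 CPM in overexpression libraries. Both groups were tight and well apart, and it rose 1.93-fold (0.95 ± 0.114, adjusted p = 8.43e-05). The 3′ UTR of RAPGEF3 held AGCACTT once, at 47736510 to 47736516. RAPGEF1, which acts downstream of tyrosine kinases and not of cAMP, had 104, 108 and 107 CPM in control and 127, 133 and 124 CPM in overexpression libraries. It was the most abundant of the 5 per length and rose by a small amount in all 3 libraries (0.26 ± 0.041, adjusted p = 0.000426). RAPGEF2, RAPGEF5 and RAPGEF6 did not pass, with log2 fold changes of 0.08 ± 0.084, 0.13 ± 0.091 and −0.09 ± 0.083. The count of RAPGEF6 is uncertain, since 54.9% of its exon bases belong also to AC008695.1 on the same strand.

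The 3 CREB genes differed from one another. CREB1, the factor that protein kinase A phosphorylates, had −0.13 ± 0.060 and did not pass (adjusted p = 0.0973), but passed when control replicate 3 was left out (adjusted p = 0.0378) or overexpression replicate 3 (0.0362). CREB5, a member of the ATF2 branch, had 8.24, 8.99 and 9.39 CPM in control and 13.8, 14.0 and 14.1 CPM in overexpression libraries. The overexpression libraries were all above the controls, and it rose 1.58-fold (0.66 ± 0.083, adjusted p = 0.000120). CREB3 is a factor of the endoplasmic reticulum membrane that is released by cleavage. It had 44.1, 43.2 and 41.3 CPM in control and 36.5, 36.8 and 35.9 CPM in overexpression libraries. It was lower in all 3 overexpression libraries (−0.23 ± 0.045, adjusted p = 0.00165).

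The 2 genes taken in by name alone were both lower. PDE4DIP (myomegalin), a centrosome and Golgi scaffold that binds PDE4D, had 34.9, 36.6 and 36.8 CPM in control and 26.7, 28.1 and 23.9 CPM in overexpression libraries. All overexpression libraries were below all controls (−0.46 ± 0.066, adjusted p = 0.000268); the gene has near-identical copies in the genome, so its count is uncertain. PDE6D, a chaperone for prenylated proteins such as RAS, had 13.4, 13.6 and 11.1 CPM in control and 8.96, 10.6 and 10.5 CPM in overexpression libraries. It fell with the groups apart (−0.35 ± 0.108, adjusted p = 0.0211), but not without control replicate 1 (adjusted p = 0.0738), control replicate 2 (0.0642) or overexpression replicate 1 (0.0901).

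Around the members, receptors and G proteins of the pathway were measured in 20 of 38 listed genes, of which 6 rose and 8 fell (median log2 fold change −0.07, beside 0.00 over all genes; 70.0% called, beside 54.5%). VIPR1, the receptor for vasoactive intestinal peptide that raises cAMP, had 1.11, 1.91 and 1.85 CPM in control and 5.22, 6.09 and 6.03 CPM in overexpression libraries. It rose 3.55-fold, from a low level, with no overlap (1.83 ± 0.210, adjusted p = 6.16e-05). RAMP2, the partner that turns the calcitonin receptor-like receptor into an adrenomedullin receptor, rose from 0.541 ± 0.0635 to 1.65 ± 0.145 CPM (SD, n = 3; 1.60 ± 0.219), while that receptor, CALCRL, fell from 2.04 ± 0.360 to 0.916 ± 0.292 CPM (−1.14 ± 0.261). The stimulatory G protein gene GNAS, at 535 ± 30.8 CPM in control, rose slightly (0.14 ± 0.045, adjusted p = 0.0210). The count of higher genes on this list was 3 without control replicate 1 or 2 and 2 without overexpression replicate 1 or 2, and on the FPKM scale 5 of its genes fell.

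Other cAMP effectors and transporters gave 4 higher and 5 lower of 13 measured (18 listed, median −0.01). Of the 13, 69.2% were called, beside 54.5% of all genes, and 23.1% at 1.5-fold or more, beside 15.6%. RAP1GAP, which switches RAP1 off and so opposes RAPGEF3, had 50.3, 54.1 and 51.1 CPM in control and 22.1, 21.2 and 19.4 CPM in overexpression libraries. It fell 2.48-fold, with a wide gap between the groups (−1.31 ± 0.060, adjusted p = 1.59e-07), and SIPA1L1, another RAP GTPase-activating protein, fell 1.77-fold (−0.82 ± 0.079). Of the relatives of SIPA1L1, SIPA1 fell (−0.37 ± 0.045), SIPA1L2 rose (0.43 ± 0.070) and SIPA1L3 did not pass (−0.01 ± 0.066). RAP1A fell slightly (−0.15 ± 0.049) and RAP1B rose (0.26 ± 0.057). HCN3, a channel of the cyclic nucleotide-gated HCN family, fell too (−0.73 ± 0.104). Of 7 measured genes of the cGMP arm (19 listed), VASP, a substrate of the cGMP-dependent kinase, rose (0.26 ± 0.047) and none fell. The 6 others did not pass (list median −0.04), so 14.3% were called, beside 54.5% of all genes.

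Among partners of CREB, 8 of 18 measured genes rose and 2 fell (19 listed; median 0.16); 55.6% were called, beside 54.5% of all genes, and 5.56% at 1.5-fold or more, beside 15.6%. CREB3L1 (0.72 ± 0.199), a relative of CREB3, the coactivator CRTC3 (0.50 ± 0.069) and the kinase SIK2, which keeps CRTC coactivators in the cytoplasm (0.48 ± 0.046), rose most. The 2 that fell were CREB3L2 (−0.47 ± 0.044), another relative of CREB3, and CRTC2 (−0.40 ± 0.052), the coactivator best known from liver. Of 17 measured textbook response genes of cAMP and CREB (26 listed), 9 rose, 1 fell and 7 did not pass, with a median of 0.39. The share called was 58.8%, beside 54.5% of all genes. At 1.5-fold or more it was 35.3% (6 genes, all higher), beside 15.6%. Many of these genes also answer to other signals. FOSB rose from 1.19 ± 0.389 to 3.83 ± 0.497 CPM (SD, n = 3; 1.69 ± 0.240, adjusted p = 0.000242). DUSP1, a phosphatase of MAP kinases, had 40.0, 40.2 and 43.1 CPM in control and 114, 108 and 106 CPM in overexpression libraries. Its groups were far apart and it rose 2.66-fold (1.41 ± 0.050, adjusted p = 3.50e-08), and INHBA, a subunit of activin, rose 2.51-fold (1.33 ± 0.045). VGF, a neuropeptide precursor, was the 1 that fell (−0.54 ± 0.042; without control replicate 2, 2 genes of this list fell), and the immediate early receptors NR4A1 (−0.19 ± 0.184) and NR4A2 (−0.33 ± 0.221) did not pass. PPARGC1A, a classical target of glucagon signalling, had 0.01 ± 0.074 (adjusted p = 0.940). Among 22 measured phosphatases and scaffold partners (25 listed), 5 rose and 5 fell (median −0.06), which is 45.5% called beside 54.5% of all genes, and 4.55% at 1.5-fold or more beside 15.6%. The largest changes were those of PPP2CB (0.59 ± 0.062), a catalytic subunit of protein phosphatase 2A, which rose, and PPP3CA (−0.44 ± 0.054), a catalytic subunit of calcineurin, and SYNM (−0.44 ± 0.081), an intermediate filament protein, which fell. Without control replicate 1, 3 genes of this list rose. Some genes fall outside the rule by which list genes are named and were chosen after their values were seen. They are GNAS, SIPA1, SIPA1L2, SIPA1L3, RAP1A, RAP1B, CREB3L2, CRTC2, BDNF, IRS2, VGF, NR4A1, NR4A2 and PPARGC1A.

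**Figure D5:**
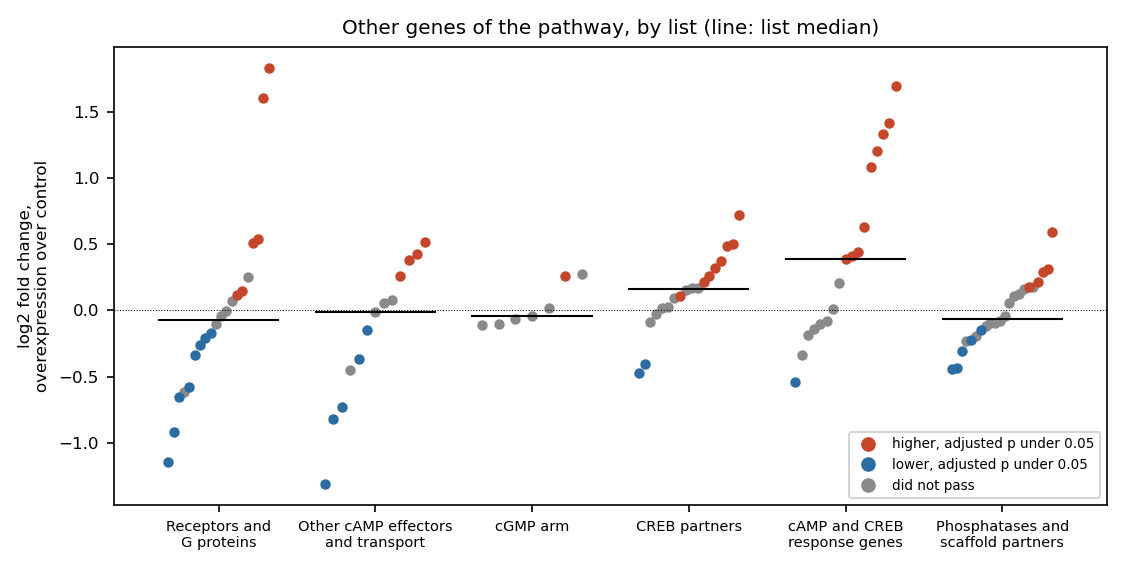
Log2 fold change (y axis, overexpression over control) of the measured genes of 6 lists around the members (x axis); each point is 1 gene, red for higher, blue for lower and grey for genes that did not pass at an adjusted p of 0.05, and black lines are list medians. The medians run from −0.07 for receptors and G proteins to 0.39 for cAMP and CREB response genes.

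The cAMP response element TGACGTCA, the palindromic CREB motif (it reads the same on both strands), was sought in RefSeq promoters, 250 bases before to 50 after each annotated start (GRCh38.p14). It lay in 3 of 42 members with a promoter sequence (7.14%), in 2 of 15 response genes (13.3%) and in 382 of 10070 tested genes with one (3.79%). These are shown with the motif in capitals because genes that hold it went in different directions.
DUSP1, chr5:172771305-172771328, minus strand: agggcgggTGACGTCAccgccccg
VGF, chr7:101165633-101165656, minus strand: atgaacatTGACGTCAatggggcg
PRKAR1A, chr17:68512373-68512396, plus strand: aggcgcatTGACGTCAgtagccga
PDE7B, chr6:135851538-135851561, plus strand: aaacccttTGACGTCActcttgaa
PDE4A, chr19:10416762-10416785, plus strand: cagtccgcTGACGTCAcgccccag
DUSP1 rose, VGF, PRKAR1A and PDE7B fell, and PDE4A did not pass.

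AGCACTT, with or without the following A, lay in the 3′ UTR of 17 of 50 members (34%), beside 3111 of 12188 genes searched (25.5%). The longer form AGCACTTTGGG lay in 6 of those 17 members (35.3%), beside 1242 of those 3111 genes (39.9%). Members had longer 3′ UTRs, with a median of 2678.5 nt beside 1399 nt over all genes searched. AGCACTTA was the best match in 8 members (16%) beside 493 genes (4.04%). Of those 8 members 4 rose and 2 fell, and of the 493 genes 104 rose and 221 fell; the median log2 fold change was 0.22 over the 8 members and −0.13 over the 493 genes. The 9 members with AGCACTT but no A after it gave 2 higher (RAPGEF3 and AKAP8) and 2 lower (PRKACB and ADCY6), or 44.4% called. Of all 2618 such genes 710 rose and 778 fell (56.8%). The 10 members with a shorter match (6 bases, or 7 with the A) gave 2 higher and 5 lower (70.0%), beside 54.5% of all 12396 genes. The 23 members without a 6-base match gave 6 higher and 10 lower (69.6%). Among them, AKAP8L and ADCY8 had only 74 and 89 nt of 3′ UTR to search. Of all 7243 genes without a 6-base match 1934 rose and 1900 fell (52.9%). The deepest falls, in ADCY5, GUCY1A1 and PKIA, came with no match, an 8-base match and a 6-base match in turn.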

How the data were processed

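RNA-seq libraries were made from JHH-4 cells with a kit that does not mark strand, 3 per group. The authors' deposited table holds, per the file headers, a read count and an FPKM value for each gene and library, with a log2 fold change and a p-value of their own comparison. Tools in the submitters' processing notes are HISAT2 2.0.4, StringTie 2.2.1, and DESeq2 1.38.3, with GRCh38 as the build and no roles stated. The counting method and annotation (not given in the sources used here) could not be checked. Of 14006 rows, none of the 12396 with an Ensembl ID had a summed count under 208, so genes of lower count are outside every share given. The 1610 rows without a gene (2.64% to 3.63% of counts) were left out of library sizes and tests.

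Counts were scaled by TMM and tested with edgeR 4.0.16 (quasi-likelihood F-test; R 4.3.3), with no block, Benjamini-Hochberg adjustment over 12396 genes and a threshold of 0.05; its low-count filter removed 0 genes. Standard errors come from the fold change and its F statistic. The authors' deposited log2 fold changes correlated with the fitted ones at 0.999935 across genes, and their p-value was under 0.05 for 34 members. That p-value was close to the unadjusted DESeq2 p-value (median ratio 1.046), so the 34 is not a count at an adjusted threshold. FPKM values were used for levels between genes and, as log2(FPKM + 0.1) with limma 3.58.1, as an alternative chosen after seeing the data. The other alternatives were DESeq2 1.42.0 and its size factors, library totals alone, no filter, a mean of at least 1 CPM, keeping the rows without a gene, the replicate block, and leaving out each library. Libraries of a group differed by more than sampling noise, with a chi-square of 6.86 to 38.6 for each degree of freedom.

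Matches to the seed were sought in the longest 3′ UTR of protein-coding transcripts of GENCODE 29, in 12188 genes. The members and lists were chosen with earlier results of these data known. Values in every library were given for members that passed with at least 1.5-fold change and, in each role, for the most abundant by FPKM and the most changed; from each list up to 3 genes with the largest changes were named. A response gene list and the other lists came from textbook knowledge. A hepatocyte marker of the fixed list and a matched sequence are not reported here.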

Additional observations from a re-analysis of the deposited data

How the results depend on the processing

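Over 14 alternatives, the 24 members given by library never changed direction. These 24 were chosen for passing with a large change or for the highest FPKM or largest called change in a role. Of the other members, AKAP6 (−0.15 to 0.16), AKAP7, AKAP9, CREB1, PDE4B, PRKAR2A and RAPGEF2 changed sign between alternatives, and none of these passed in the fit reported. In that fit 14 of the 50 members rose and 19 fell. Leaving out 1 library at a time gave 13 to 15 higher and 15 to 20 lower members, beside 2800 to 3546 higher and 2961 to 3553 lower genes in all. FPKM gave 13 and 15, and DESeq2 14 and 18. Equal replicate numbers did not pair the libraries (correlations of deviations −0.14, −0.05 and 0.10, and not every library correlated best with its own number); the replicate block gave 15 higher and 18 lower members, and 3381 and 3428 genes in all, and its changed calls were PDE8B (lost) and AKAP17A (gained). Leaving out 1 library, the higher count was 2 to 6 among receptors and G proteins and 3 to 7 among phosphatases and scaffold partners, and the lower count among response genes was 1 to 2. With FPKM, 5 receptor and G protein genes were lower instead of 8. The cause of these shifts was not tested. PDE8B, PDE1A and PRKACA lost their call in 9, 5 and 5 alternatives, and with 3 libraries a group smaller changes may go uncalled.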
